A study of Aspergillus niger with 9 samples.

Results

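Protein kinases transfer phosphate from ATP to serine, threonine or tyrosine residues of other proteins and so relay signals between them. In filamentous fungi they are grouped by the pathway they serve: the 3 tiers of the mitogen-activated protein (MAP) kinase cascades, which answer osmotic stress, cell wall damage and mating or hyphal fusion signals; the AGC kinases, which act downstream of cAMP, lipids and TOR; the cyclin-dependent kinases (CDKs) and mitotic kinases; and the kinases that answer carbon, amino acid and calcium signals. Their activity is set largely by phosphorylation and binding partners, so that a transcript level is not a measure of kinase activity.

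The kinases described here are the genes of Aspergillus niger whose predicted protein holds the protein kinase domain PF00069 in the authors' annotated table. Of 11187 genes, 122 hold it; 1 of these, ATCC64974_22370, was left out by name and 0 hold the heterokaryon incompatibility domain PF06985, which leaves 121 members. The closest SwissProt protein is called a kinase for 109 of the 116 members that have such a match. The gene ontology column names kinase activity for 121 of 121. Such terms can be assigned from the domain itself, so they are no separate support for the label. A symbol below is that of the closest SwissProt protein, and a gene number is added where symbols repeat. As exceptions cdk1 stands for nimX, KCC1 for cmkA and casein kinase 2 alpha for cka, and SRPK is a type name. The closest protein belongs to Schizosaccharomyces pombe for 42 members, to Saccharomyces cerevisiae for 13 and to an Aspergillus for 13. A symbol shared with a yeast kinase is therefore a resemblance in sequence, and the roles given are those known in the species named or in fungi at large.

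Poly(A) RNA of vegetative mycelium from shaken liquid cultures was sequenced in 9 libraries, 3 biological replicates from each of 3 strains. The strains are MA234.1, for which the labels give no genotype, and the deletion strains ΔaslA and ΔaslB; no treatment distinguishes them, and what aslA and aslB encode is not stated in the sources used here. The protocol given is the same for all 9 libraries. It names a 16 h culture in glucose medium (25 mM, with yeast extract and casamino acids) and a 4 h culture in 25 mM xylose. From which of these cultures the RNA was taken is not stated. No gene carries the name aslA or aslB, so the deletions were not checked by the deleted gene. The question the design poses for the kinases is which of their transcripts differ between each deletion strain and MA234.1, and between the deletion strains.

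The depth was 11321882 to 19110786 counts a library, and 3 counts amounted to 0.158 to 0.275 CPM (counts per 1e6 counts, TMM-scaled). The ΔaslB libraries stood apart from each other. By the correlation of log2 CPM over all genes, replicate 2 was nearest to MA234.1 (r of 0.970 to 0.978, and 0.777 to 0.798 with ΔaslA), replicate 3 was nearest to ΔaslA (0.967 to 0.984, and 0.772 to 0.777 with MA234.1), and so was replicate 1 (0.922 to 0.941, and 0.798 to 0.803 with MA234.1). These correlations are across genes, which are not independent replicates. Results that rest on ΔaslB are therefore given library by library, and with and without replicate 2. Markers of conidiophores, the spore-bearing structures, are 4 genes closest to brlA (2 genes), abaA and wetA, and none was at 0 in any library. Their summed level was 63.5 to 65.5 CPM in MA234.1, 58.3 to 64.7 in ΔaslA and 35.4 to 58.2 in ΔaslB. Within the list abaA stood at 0.826, 2.01 and 1.46 CPM in MA234.1 and at 18.4, 21.7 and 16.9 in ΔaslA, and brlA (ATCC64974_72370) at 36.9, 41.0 and 39.2 against 17.9, 11.7 and 18.7. Their part in the kinase results was not tested; in bulk RNA, fewer cells of a type and less RNA per cell cannot be told apart.

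Kinase transcripts were mostly of middling abundance. By the authors' deposited FPKM, which is scaled to transcript length and holds 1 value per strain, the median kinase stood at 22.6 FPKM in MA234.1 against 16.1 over all 11187 genes; 16 of 121 kinases stood at 100 FPKM or more and 16 under 1. The casein kinase I homolog hhp1 (ATCC64974_47520) had the highest level at 751 FPKM. It was followed by gsk3 (ATCC64974_32660), a glycogen synthase kinase homolog, at 624, by ksp1 (ATCC64974_65120) at 499, by the osmostress MAP kinase hog1 (ATCC64974_101860) at 369 and by SNRK (ATCC64974_103070), a relative of SNF1, at 306. With 1 value per strain no spread can be given for this order. The median was 57.8 FPKM for AGC kinases and 57.0 for nutrient and stress kinases, 32.0 for the MAP kinase cascades, 19 for cell division, 15.5 for casein, GSK3 and splicing kinases and 15 for the rest.

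**Figure D1:**
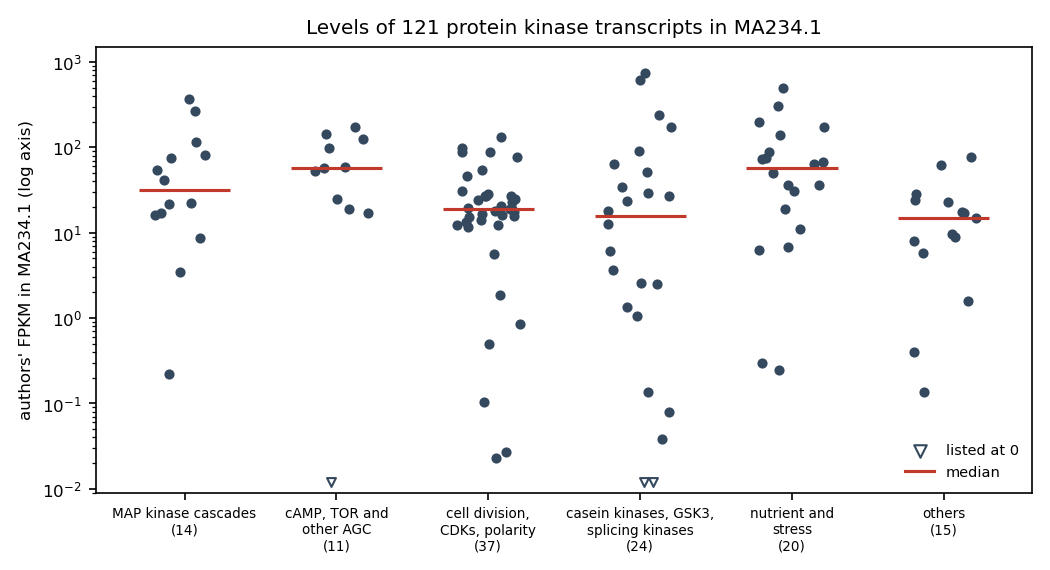
Authors' FPKM of each of the 121 kinase genes in MA234.1 (log axis), by role class, with the number of genes under each class; lines are class medians and open triangles are genes listed at 0. hhp1 (751), gsk3 (624) and ksp1 (499) are the highest points, and the division class has 1 gene at 100 FPKM or more.

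Of the 121 members, 13 (10.7%) did not pass edgeR's filter on low counts, against 14.5% of all genes, and 6 of the 13 are among the 24 casein, GSK3 and splicing kinases: 5 of the 12 genes of the SRPK type, which phosphorylate splicing factors, and csnk1da, another casein kinase I. One of them, Srpk1 (ATCC64974_88450), had no count in any library. cbk1 (ATCC64974_91310), closest to the kinase that guides polar growth in Aspergillus nidulans and the 1 member that the annotation places in a secondary metabolite cluster, also missed the filter. It stood at 0, 0.0746 and 0.230 CPM in MA234.1 and at 1.04, 0.738 and 1.01 CPM in ΔaslA, without overlap. Its relative cot-1 (ATCC64974_17590), named for the Neurospora crassa kinase of hyphal tip growth, stood at 129 to 139 CPM in MA234.1. In the genome the kinases are scattered over 12 contigs, with 1 pair of neighbouring members, ran1 and prp4 on contig 10, and 0 members overlap another gene in position.

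In ΔaslA against MA234.1, 39 of the 108 tested kinases changed (36.1%), 20 higher and 19 lower, at an adjusted p under 0.05 of edgeR's quasi-likelihood test; over all 9568 genes tested 48.7% were called, 23.6% higher and 25.0% lower. Their median absolute log2 fold change was 0.51, against 0.92 over all genes. A change of at least 1 on the log2 scale was seen in 20 kinases (18.5%), against 47.1% of all genes, and of at least 2 in 5 kinases (4.63%), against 22.7%. Of 55 kinases averaging 50 CPM or more 2 changed by at least 1 (3.64%), where 40.8% of 3601 genes at that level did, and 32.7% were called, where 53.5% of those genes were. From 5 to 50 CPM 26.3% of 38 kinases changed by at least 1, against 48.7% of all genes at that level, and under 5 CPM 53.3% of 15 kinases did, against 55.5%; 39.5% and 40% of these kinases were called, against 52.0% and 31.8%. The 3 libraries of ΔaslA did not overlap those of MA234.1 for 82 of 108 kinases (75.9%), against 74.7% of all genes.

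The ΔaslB libraries enter the spread of this fit. With only the 6 libraries of ΔaslA and MA234.1, 73 of 105 kinases were called (69.5%; 38 higher, 35 lower), against 69.3% of 9382 genes (34.4% higher, 34.9% lower), and 35 of the 73 had not been called with all 9. The count was 19, 23 and 19 without MA234.1 replicate 1, 2 or 3, and 18, 26 and 19 without ΔaslA replicate 1, 2 or 3. It was 51, 61 and 48 without ΔaslB replicate 1, 2 or 3. Of the 39 kinases 15 kept their call in all 9 of these fits, 7 of them higher and 8 lower; 10 lost it without each of the 6 MA234.1 and ΔaslA libraries in turn, and the other 14 without some of them. When ΔaslB was left out and 1 of the 6 remaining libraries with it, 37 of the 39 were tested and kept in all 6 such fits; HSL1 lost its call without MA234.1 replicate 1 or 3, and the RAD53-type gene ATCC64974_46630 was called in the 4 fits that tested it. By the authors' deposited table, 30 of 121 kinases (24.8%) have a q-value under 0.05 for this pair, 13 higher and 17 lower in ΔaslA, against 41.2% of all genes. The call the authors' deposited table adds is narrower: its rule is not stated, and the smallest absolute log2 ratio of any gene it calls is 2.0. These ratios match FPKM with 1 added to each value, which shrinks them for genes at low FPKM. This narrower call marks 2 kinases (1.65%), against 13.4% of all genes. Both stand lower in ΔaslA: Cdk8 (ATCC64974_88000), at 26.6 against 3.42 FPKM, and PHO85 (ATCC64974_89380), at 14.2 against 0.458.

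**Figure D2:**
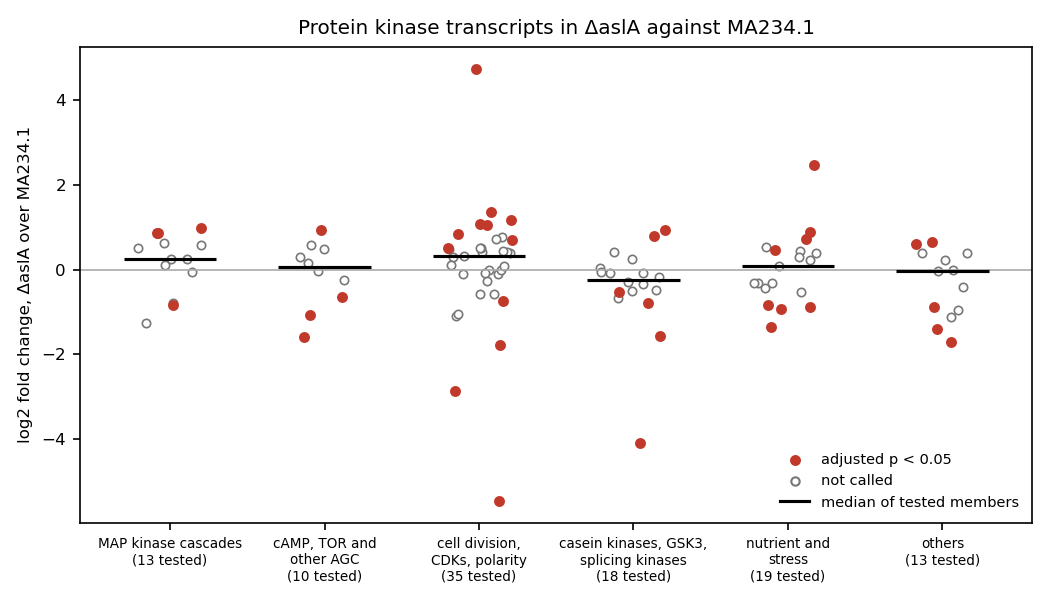
Fitted log2 fold change of each of the 108 tested kinases, ΔaslA over MA234.1, by role class; filled red points have an edgeR adjusted p under 0.05, open points do not, and lines are medians of the tested members. Most points lie between -1 and 1; the lowest is PHO85 (ATCC64974_89380) at -5.47, and the highest, RAD53 (ATCC64974_46630), rests on 1 count in MA234.1.

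Among the MAP kinase cascades 3 of 13 tested genes rose and 1 fell (30.8% called), where 48.7% of all genes were called. Of the 3 that rose 2 belong to the cell wall integrity cascade. In S. pombe and S. cerevisiae that cascade runs from protein kinase C through mkh1 (the MAP kinase kinase kinase), the MKK2 type (the MAP kinase kinase) and spm1 (the MAP kinase), and it guards the cell wall. MKK2 (ATCC64974_108860, contig 17, 4132689 to 4134384) stood at 139, 157 and 145 CPM in MA234.1 and at 280, 249 and 277 CPM in ΔaslA. The 2 strains did not overlap, and MKK2 rose from 147 ± 9.14 to 269 ± 16.8 CPM (SD, n = 3 each; log2 change 0.87, SE 0.16, edgeR adjusted p = 0.00808). spm1 (ATCC64974_15710, contig 3, 1352613 to 1354146) stood at 84.9, 79.8 and 75.2 CPM in MA234.1 and at 160, 153 and 161 CPM in ΔaslA. It rose by 0.98 on the log2 scale (SE 0.32, edgeR adjusted p = 0.0321), a call that was lost without any 1 of the 6 libraries compared (adjusted p up to 0.0984) and held in all fits without ΔaslB. At the top of the cascade mkh1 (ATCC64974_57210) stood at 82.9 ± 7.96 against 124 ± 5.82 CPM (log2 change 0.58, SE 0.22, edgeR adjusted p = 0.0523) and pkcA (ATCC64974_109970) at 148 ± 6.40 against 206 ± 21.4 CPM (0.48, SE 0.22, 0.0950); neither was called with 9 libraries, and both were with 6 (edgeR adjusted p = 0.00132 and 0.00357).

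In the ΔaslB libraries the members of this cascade parted. MKK2 stood at 162, 174 and 155 CPM, closer to MA234.1 than to ΔaslA in all 3 libraries. Its kinase partner spm1 stood at 181, 69.9 and 170 CPM, so that replicates 1 and 3 lay above all ΔaslA libraries and replicate 2 below all MA234.1 libraries.

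The cascade of mating and hyphal fusion moved in both directions. STE11 (ATCC64974_65160), its MAP kinase kinase kinase, stood at 14.8, 18 and 20.3 CPM in MA234.1 and at 32.8, 31.6 and 32.6 in ΔaslA. It rose by 0.87 (log2 scale, SE 0.29, edgeR adjusted p = 0.0360), which was lost without any 1 of the 6 libraries compared (adjusted p up to 0.119) and held in all fits without ΔaslB. FUZ7 (ATCC64974_95310), named for the MAP kinase kinase of Ustilago maydis, stood at 30.6 ± 2.13 against 47.0 ± 4.69 CPM and was not called (0.62, SE 0.25, edgeR adjusted p = 0.0675; 0.0028 with 6 libraries). The MAP kinase ATCC64974_98230 (contig 17, 744121 to 745337), closest to one of Fusarium solani, stood at 222, 223 and 232 CPM in MA234.1 and at 129, 121 and 127 CPM in ΔaslA. It fell by 0.84 on the log2 scale (SE 0.18, edgeR adjusted p = 0.00849) and was the 1 MAP kinase cascade gene called lower. The p21-activated kinases ste20 and CLA4, which act above this tier, stood at 30.9 ± 2.06 against 29.7 ± 2.24 and at 78.7 ± 4.42 against 84.7 ± 17.7 CPM and were not called (edgeR adjusted p = 0.803 and 0.718).

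The osmostress cascade had no member called with all 9 libraries. wis4, its MAP kinase kinase kinase, stood at 55.4 ± 8.30 CPM in MA234.1 and 66.2 ± 12.1 in ΔaslA, and wis1 (ATCC64974_14600), its MAP kinase kinase, at 115 ± 2.61 and 138 ± 3.58 CPM (edgeR adjusted p = 0.340 and 0.509; 0.223 and 0.0225 with 6 libraries). hog1 stood at 328, 324 and 320 CPM in MA234.1, at 469, 457 and 468 in ΔaslA and at 414, 305 and 304 in ΔaslB. Its MA234.1 and ΔaslA libraries did not overlap, and its log2 change of 0.52 (SE 0.19) had an edgeR adjusted p of 0.0505, and of 0.000386 with 6 libraries. The Aspergillus relative of hog1, mpkC (ATCC64974_46060), went the other way in value. It stood at 53.8, 52.7 and 51.4 CPM in MA234.1 and at 24.3, 15.9 and 25.9 in ΔaslA (log2 change -1.26, SE 0.60, edgeR adjusted p = 0.108; 0.000422 with 6 libraries), and at 15.4, 60.5 and 9.39 in ΔaslB. A second gene closest to mpkC, ATCC64974_107630, stood at 2.65 ± 0.903 against 1.52 ± 0.451 CPM. wis1 had the widest gap of a single library among kinases averaging at least 5 CPM: 285 CPM in ΔaslB replicate 1, 2.01 times the next library, against 115 and 136 CPM in replicates 2 and 3.

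**Figure D3:**
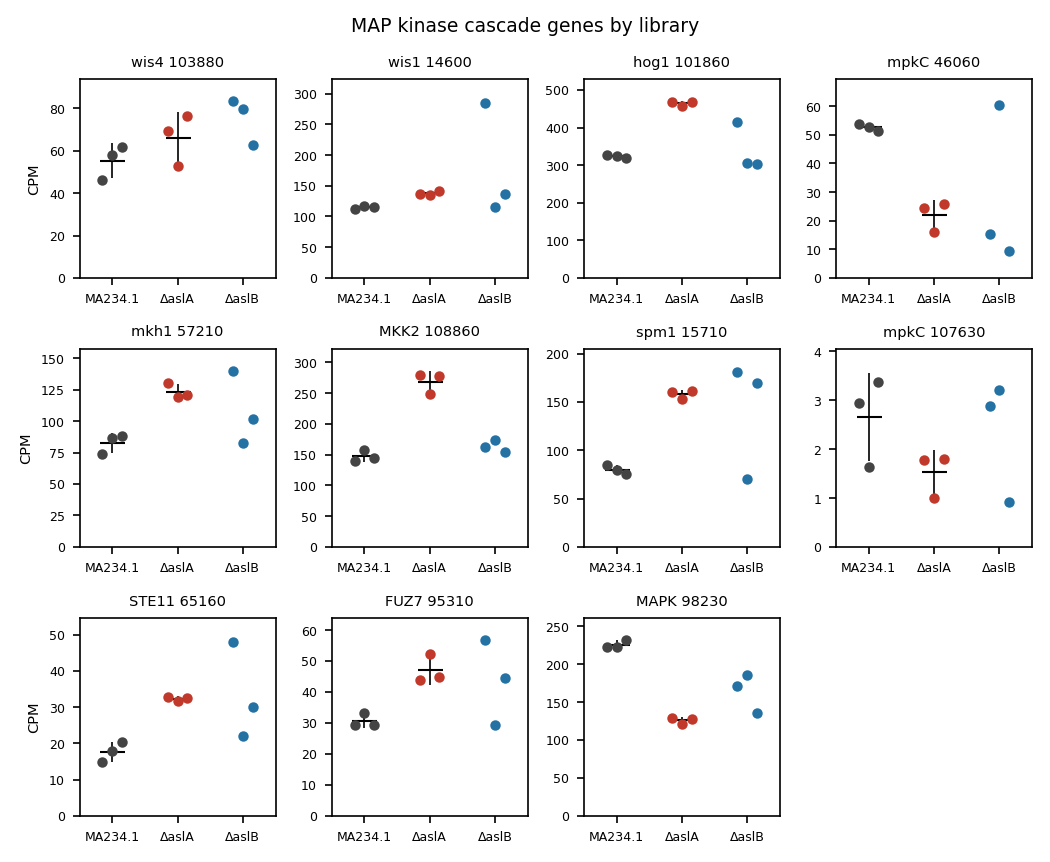
CPM of 11 MAP kinase cascade genes in each library (points), for MA234.1, ΔaslA and ΔaslB; bars are mean and SD of 3 libraries and are not drawn for ΔaslB. MKK2 is high in ΔaslA alone, at 249 to 280 CPM, while the ΔaslB libraries of spm1 (181, 69.9 and 170 CPM) fall on either side.

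Of the 10 tested AGC kinases 1 rose and 3 fell, where 48.7% of all genes were called. psk1 (ATCC64974_70050, contig 10, 2293489 to 2295238), named for an S6 kinase of S. pombe that TOR activates, stood at 205, 182 and 198 CPM in MA234.1 and at 68.4, 53.2 and 71.1 in ΔaslA. It fell by 1.60 on the log2 scale (SE 0.32, edgeR adjusted p = 0.00816), with no overlap, and stood at 74.7, 177 and 92.8 CPM in ΔaslB. SCH9 (ATCC64974_107600), the TOR effector of budding yeasts, stood at 277 ± 5.33 against 177 ± 20.0 CPM and fell by 0.64 (SE 0.18, edgeR adjusted p = 0.0197). gad8, which in S. pombe answers the other TOR complex, stood at 137 ± 7.16 against 170 ± 3.70 CPM and was not called (0.31, SE 0.19, edgeR adjusted p = 0.185; 0.0111 with 6 libraries). nrc-2 (ATCC64974_109240), named for a kinase that holds back the conidiation programme in N. crassa, stood at 253, 280 and 277 CPM in MA234.1 and at 129, 127 and 126 in ΔaslA. It fell by 1.08 (SE 0.35, edgeR adjusted p = 0.0328) and stood at 146, 286 and 93.8 CPM in ΔaslB.

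The AGC kinase that rose was ksg1 (ATCC64974_55620, contig 7, 4060224 to 4062807), a PDK1 homolog, whose type activates other AGC kinases. It stood at 33.3, 40 and 37.9 CPM in MA234.1, at 68.3, 76.7 and 67.9 in ΔaslA and at 55.7, 53.7 and 53.8 in ΔaslB. Its change in ΔaslA was 0.94 on the log2 scale (SE 0.16, edgeR adjusted p = 0.00808). All 3 ΔaslB libraries lay between the other strains and, on the log2 scale, closer to ΔaslA. The catalytic subunit of cAMP-dependent protein kinase closest to TPK2 (ATCC64974_62380) stood at 61.0 ± 3.11 against 59.4 ± 2.95 CPM (-0.04, SE 0.19, edgeR adjusted p = 0.877), with overlapping libraries. Calls of SCH9 and nrc-2 were lost without any 1 of the 6 libraries compared (edgeR adjusted p up to 0.0689 and 0.0920) and held in all fits without ΔaslB.

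The kinases of cell division, CDKs and polarity held the deepest fall of the set. Of 35 tested 8 rose and 4 fell (34.3% called), where 48.7% of all genes were called. cdk1 (ATCC64974_89270, contig 16, 797941 to 799131), the CDK that drives mitosis, stood at 25.2, 21.9 and 24.6 CPM in MA234.1 and at 63.6, 56.3 and 63.3 in ΔaslA. It rose 2.55-fold in mean CPM (log2 change 1.35, SE 0.31, edgeR adjusted p = 0.00963), and stood at 59.9, 25.2 and 55.5 CPM in ΔaslB. KIN28 (ATCC64974_23600), the CDK of the general transcription factor TFIIH, rose from 17.7 ± 4.32 to 40.3 ± 0.855 CPM (1.18, SE 0.25, edgeR adjusted p = 0.00871). hsk1 (ATCC64974_95620), a Cdc7 homolog that fires replication origins, rose from 20.7 ± 3.28 to 37.0 ± 2.36 CPM (0.84, SE 0.25, edgeR adjusted p = 0.0223). svkA (ATCC64974_24220), named for a severin kinase of Dictyostelium, rose from 2.88 ± 1.02 to 6.12 ± 0.843 CPM (1.08, SE 0.37, edgeR adjusted p = 0.0376). The other gene closest to svkA, ATCC64974_54090, stood at 43.7 ± 4.86 against 43.0 ± 2.23 CPM. Calls of hsk1 and svkA did not hold in every fit with 1 library left out. hsk1 lost its call without any 1 of the 6 libraries compared (edgeR adjusted p up to 0.0849). svkA lost it without any of them but MA234.1 replicate 2 (up to 0.120). Both calls held in all fits without ΔaslB.

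wee1, nimA, ark1 and chk1 were not called with 9 libraries. wee1 (ATCC64974_38940), which inhibits cdk1, stood at 37.5 ± 4.42 against 53.4 ± 2.18 CPM (0.51, SE 0.25, edgeR adjusted p = 0.113; 0.00644 with 6 libraries), and nimA, which A. nidulans needs to enter mitosis, at 29.4 ± 7.41 against 39.2 ± 5.64 CPM (0.41, SE 0.23, 0.162). The aurora kinase ark1 (ATCC64974_33070) stood at 53.4 ± 5.63 against 49.7 ± 5.99 CPM, and the checkpoint kinase chk1 at 15.4 ± 0.482 against 16.6 ± 2.17 CPM. Of the genes of septation, sid2 and HSL1 rose, from 36.4 ± 2.79 to 51.8 ± 2.54 and from 2.01 ± 0.524 to 4.21 ± 0.949 CPM (edgeR adjusted p = 0.0405 and 0.0396). The call of sid2 was lost without any 1 of the 6 libraries compared (up to 0.150), that of HSL1 without any of them but ΔaslA replicate 3 (up to 0.129).

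Genes that share a closest symbol did not always change in the same direction. The 3 genes closest to PHO85, a CDK of phosphate and nutrient signalling in budding yeast, are ATCC64974_7840, ATCC64974_18990 and ATCC64974_89380. The first stood at 67.2, 63.1 and 64.8 CPM in MA234.1 and at 95.4, 112 and 109 in ΔaslA, and rose by 0.70 (log2 scale, SE 0.17, edgeR adjusted p = 0.0114). The third (contig 16, 831237 to 832288) stood at 12.1, 11.8 and 9.67 CPM in MA234.1 and at 0.296, 0.211 and 0.233 CPM in ΔaslA, about the level of 3 counts per library. This was the deepest fall of any kinase, by 5.47 on the log2 scale (SE 1.11, edgeR adjusted p = 0.00830); in ΔaslB it stood at 1.95, 11.8 and 0.416 CPM. The remaining gene, ATCC64974_18990, stood at 9.45 ± 0.319 against 4.45 ± 1.40 CPM without overlap and was not called (-1.09, SE 0.46, edgeR adjusted p = 0.0780; 0.00495 with 6 libraries).

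Of the Mediator kinase type both genes stood lower in ΔaslA. ssn3 (ATCC64974_9350), which SwissProt lists for A. niger itself, stood at 127, 125 and 132 CPM in MA234.1 and at 97.3, 61.9 and 97.8 in ΔaslA, and was not called (-0.58, SE 0.24, edgeR adjusted p = 0.0728; 0.0151 with 6 libraries). The gene closest to Drosophila Cdk8, ATCC64974_88000 (contig 16, 363179 to 365264), stood at 42.9, 39.6 and 45.5 CPM in MA234.1 and at 6.21, 5.90 and 5.21 in ΔaslA. It fell by 2.88 (SE 0.67, edgeR adjusted p = 0.0101), with ΔaslB at 9.80, 48.5 and 6.98 CPM.

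Of 3 genes closest to the checkpoint kinase RAD53, ATCC64974_30190 carries the forkhead-associated domain by which RAD53 binds its partners, and ATCC64974_46630 and ATCC64974_90970 carry ankyrin repeats instead. ATCC64974_30190 stood at 30.1 ± 1.29 against 25.0 ± 3.22 CPM and was not called (-0.27, SE 0.20, edgeR adjusted p = 0.282). ATCC64974_90970 stood at 6.88, 6.64 and 7.45 CPM in MA234.1 and at 2.44, 1.32 and 2.33 in ΔaslA, and fell by 1.79 (SE 0.50, edgeR adjusted p = 0.0177; 0.0592 at most, lost without MA234.1 replicate 3 or ΔaslA replicate 2). ATCC64974_46630 had 1 count over the 3 MA234.1 libraries and 41 over those of ΔaslA, a ratio of 33.6 with an exact 95% counting interval of 5.70 to 1360 that covers counting error only (edgeR adjusted p = 0.0161; up to 0.0568, lost without MA234.1 replicate 2 or 3). In ΔaslB it stood at 4.40, 1.21 and 0.748 CPM, so all 3 libraries lay above MA234.1. The other ankyrin kinase, Ank3 (ATCC64974_6160), stood at 20.6, 28.4 and 25.6 CPM in MA234.1 and at 9.62, 7.69 and 10.7 in ΔaslA, and fell by 1.41 (SE 0.33, edgeR adjusted p = 0.0104). On the log2 scale its ΔaslB libraries, at 36.8, 24.3 and 15.5 CPM, were all closer to MA234.1. In CPM itself replicate 3 lay nearer to ΔaslA. How reads shared between similar genes were counted is not given in the sources used here, so the split between such genes is uncertain to that extent.

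**Figure D4:**
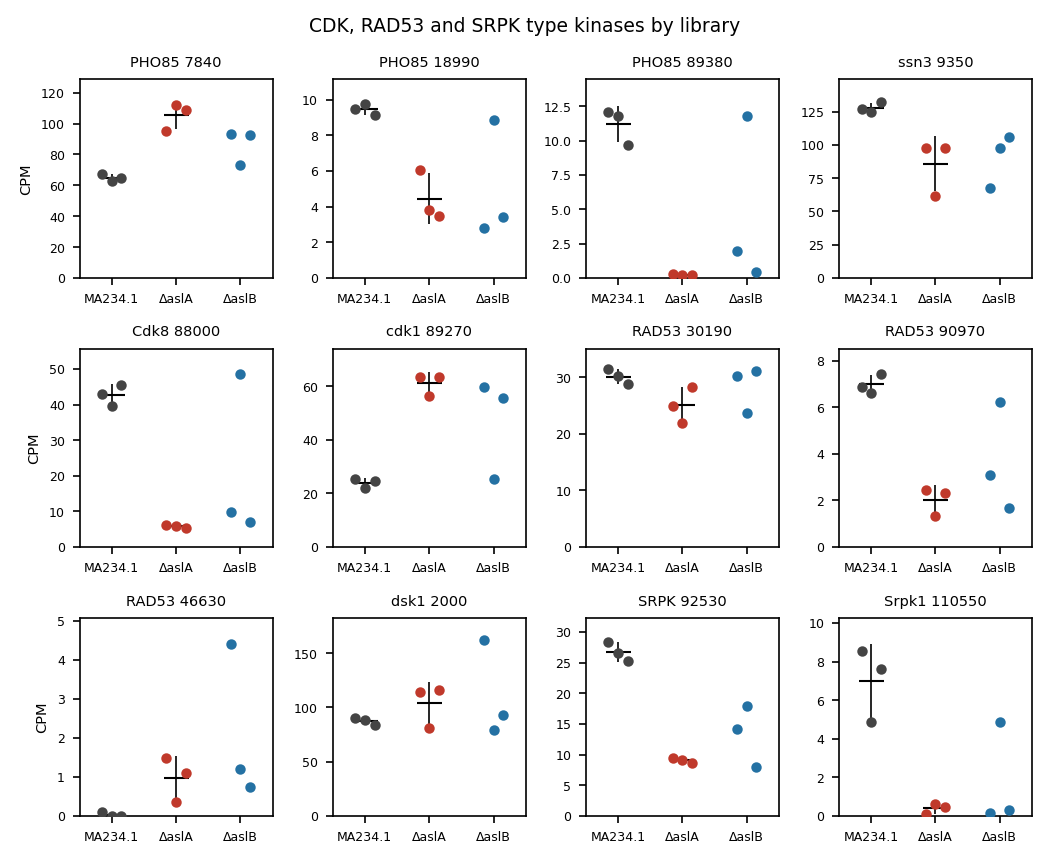
CPM of 12 kinases of the CDK, RAD53 and SRPK types in each library (points), for MA234.1, ΔaslA and ΔaslB; bars are mean and SD of 3 libraries and are not drawn for ΔaslB. Within the PHO85 type ATCC64974_7840 is higher and ATCC64974_89380 lower in ΔaslA, and for Cdk8, cdk1 and ATCC64974_89380 the second ΔaslB library lies with MA234.1.

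Of 18 tested casein, GSK3 and splicing kinases 2 rose and 4 fell (33.3% called), where 48.7% of all genes were called. Casein kinase 2 alpha (ATCC64974_67110), a growth-related kinase with many substrates, stood at 130, 124 and 125 CPM in MA234.1 and at 237, 196 and 229 in ΔaslA, and rose by 0.80 (SE 0.25, edgeR adjusted p = 0.0262). prp4 (ATCC64974_69520), which phosphorylates components of the spliceosome, stood at 71.8, 66.8 and 64.3 CPM against 126, 126 and 134, and rose by 0.93 (SE 0.23, edgeR adjusted p = 0.0122). Its neighbour on contig 10, ran1 (ATCC64974_69510), which holds back meiosis in S. pombe, stood at 95.4 ± 5.69 against 64.5 ± 3.56 CPM and was not called (-0.57, SE 0.33, edgeR adjusted p = 0.175; 0.000942 with 6 libraries). gsk3 fell from 590 ± 35.3 to 405 ± 54.5 CPM (-0.54, SE 0.20, edgeR adjusted p = 0.0462), and its ΔaslB libraries, at 448, 405 and 366 CPM, were all closer to ΔaslA. hhp1, the most abundant kinase, stood at 744 ± 31.2 against 585 ± 105 CPM and was not called (edgeR adjusted p = 0.219; 0.0449 with 6 libraries). The call of casein kinase 2 alpha was lost without any of the 6 libraries compared but ΔaslA replicate 2 (edgeR adjusted p up to 0.0830). That of gsk3 was lost without any of the 6 (up to 0.137). Both calls held in all fits without ΔaslB.

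Among the 7 tested SRPK-type kinases 2 fell (28.6%) and 0 rose, where 25.0% of all genes were called lower. Srpk1 (ATCC64974_110550) stood at 8.53, 4.85 and 7.60 CPM in MA234.1 and at 0.0740, 0.632 and 0.466 in ΔaslA, and fell by 4.09 (SE 1.21, edgeR adjusted p = 0.0221), a call lost without MA234.1 replicate 1 or 3 or any ΔaslA library (up to 0.0699). Its value in ΔaslA replicate 1 lay below the level of 3 counts, 0.222 CPM in that library. SRPK ATCC64974_92530 stood at 28.4, 26.6 and 25.2 CPM against 9.39, 9.06 and 8.71, and fell by 1.56 (SE 0.30, edgeR adjusted p = 0.00808). dsk1 (ATCC64974_2000), the most abundant of the type by FPKM in MA234.1 (63.2), stood at 87.3 ± 3.38 against 104 ± 19.4 CPM and was not called (edgeR adjusted p = 0.482).

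In the nutrient and stress class 4 of 19 kinases rose and 4 fell (42.1% called), where 48.7% of all genes were called. SNF1 (ATCC64974_74450), which releases genes from carbon catabolite repression, stood at 96.8, 89.9 and 90.3 CPM in MA234.1 and at 127, 118 and 137 in ΔaslA, and rose by 0.46 (SE 0.16, edgeR adjusted p = 0.0418); in ΔaslB it stood at 91.6, 88.3 and 109 CPM. Its relative SNRK, one of the 5 most abundant kinases, stood at 479, 471 and 462 CPM against 254, 229 and 253, and fell by 0.94 (SE 0.31, edgeR adjusted p = 0.0334). CIPK4 (ATCC64974_55190), closest to a plant kinase of the same family, fell from 11.5 ± 1.19 to 4.51 ± 0.531 CPM (-1.35, SE 0.32, edgeR adjusted p = 0.0104). gcn2 (ATCC64974_64870), which senses uncharged tRNA and phosphorylates initiation factor eIF2 alpha, rose from 67.0 ± 7.95 to 124 ± 13.2 CPM (0.89, SE 0.27, edgeR adjusted p = 0.0231). IRE1, the sensor of unfolded proteins and the 1 member with a predicted secretion signal, stood at 159 ± 12.1 against 209 ± 20.9 CPM and was not called (0.39, SE 0.20, edgeR adjusted p = 0.137; 0.0116 with 6 libraries). The autophagy kinase atg1 stood at 79.9 ± 1.34 against 55.9 ± 0.955 CPM without overlap and was not called (-0.52, SE 0.21, edgeR adjusted p = 0.0651; 0.000945 with 6 libraries).

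Of 2 genes closest to hal4, a kinase of potassium transport in S. pombe, ATCC64974_46900 rose from 0.282 ± 0.179 to 1.64 ± 0.475 CPM (2.47, SE 0.61, edgeR adjusted p = 0.0120). Its MA234.1 level was about that of 3 counts per library (0.224 to 0.275 CPM), and a stricter filter on low counts left it out. The abundant ATCC64974_65610 stood at 268 ± 6.64 against 198 ± 32.3 CPM and was not called (edgeR adjusted p = 0.219, and 0.0116 with 6 libraries). Of the 6 calcium-related kinases KCC1 rose and CAMKK1 fell, from 137 ± 2.16 to 225 ± 47.3 and from 57.8 ± 2.58 to 31.4 ± 4.86 CPM (edgeR adjusted p = 0.0228 and 0.0159). The calls of SNF1, gcn2 and KCC1 were lost without any of the 6 libraries compared but ΔaslA replicate 2, and that of SNRK without any of the 6 (edgeR adjusted p up to 0.134, 0.0840, 0.0774 and 0.0910); CAMKK1 lost its call without MA234.1 replicate 1, or ΔaslA replicate 1 or 3 (up to 0.0658).

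Of the 13 other tested kinases 2 rose and 3 fell (38.5% called), where 48.7% of all genes were called. ATCC64974_52800 (contig 7, 3138701 to 3139940), 1 of the 5 members with no SwissProt match, stood at 19.3, 18.7 and 17.5 CPM in MA234.1 and at 5.84, 6.80 and 4.20 in ΔaslA. It fell by 1.72 (SE 0.43, edgeR adjusted p = 0.0124), with ΔaslB at 14.5, 10.7 and 4.16 CPM. DDB_G0282895 (ATCC64974_61950), named for a Dictyostelium gene, fell from 48.7 ± 2.25 to 26.2 ± 3.43 CPM (edgeR adjusted p = 0.0166; up to 0.0579, lost without MA234.1 replicate 2, or ΔaslA replicate 1 or 2).

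**Figure D5:**
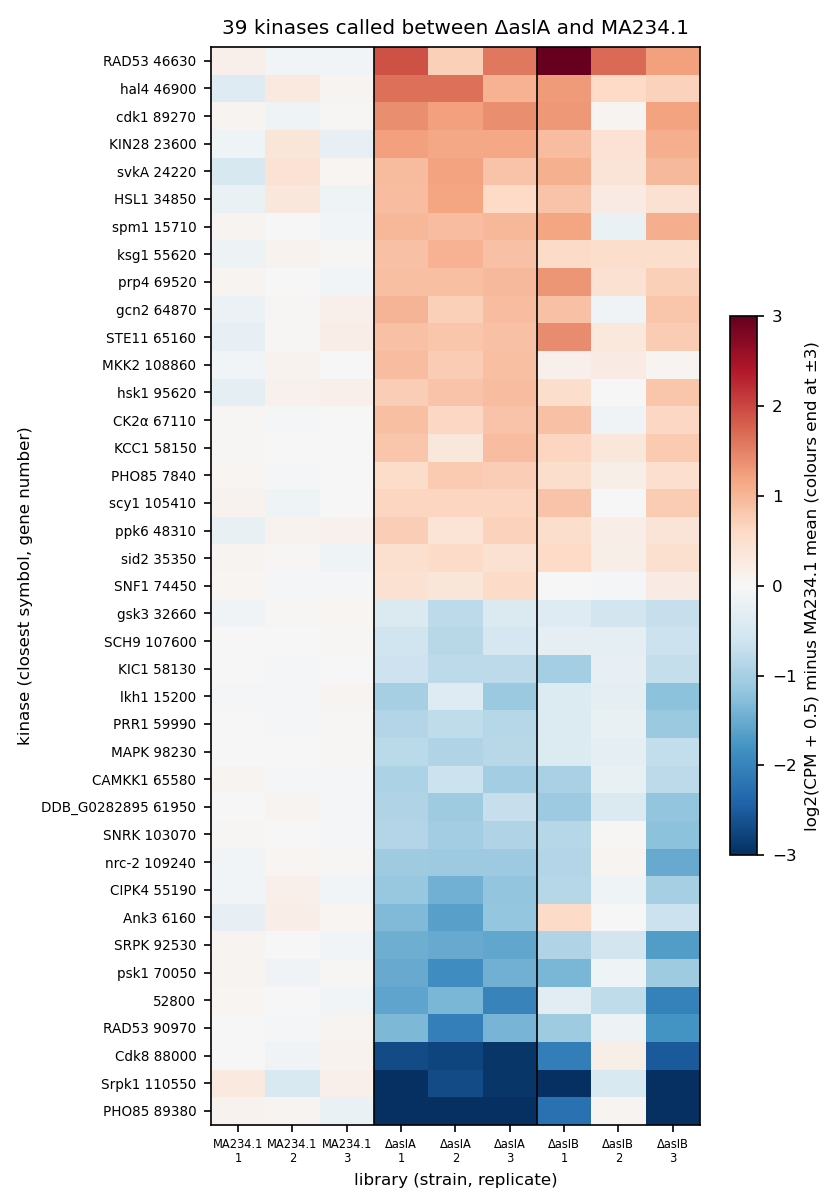
Level of the 39 kinases called between ΔaslA and MA234.1 in each library, as log2(CPM + 0.5) minus the MA234.1 mean (colours end at 3 on either side), ordered by fold change. The genes were chosen on the difference between the strains of the first 6 columns, in a fit of all 9 libraries whose spread includes ΔaslB. In the ΔaslB columns replicates 1 and 3 resemble ΔaslA for most genes and replicate 2 resembles MA234.1.

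Families that work with the kinases were followed beside them in ΔaslA against MA234.1, where 23.6% of all genes were called higher and 25.0% lower. Protein phosphatases, which reverse kinase action, had 9 of 39 tested genes higher and 6 lower; the dual specificity phosphatase PPS1 fell from 143 ± 9.04 to 8.16 ± 1.43 CPM (log2 change -4.13, SE 0.70, edgeR adjusted p = 0.00808). The acid phosphatase aphA, which the family search also took in and which is secreted to release phosphate, fell from 34.5 ± 3.49 to 3.87 ± 0.409 CPM. Cyclins, the activating partners of CDKs, had 2 of 14 higher and 0 lower, among them nimE, the mitotic cyclin B, from 122 ± 7.83 to 176 ± 16.9 CPM (0.53, SE 0.19, edgeR adjusted p = 0.0468). Genes taken in by domain as histidine kinases, a type that includes sensors feeding the osmostress cascade in fungi, had 0 of 17 higher and 4 lower. Of the 4 the gene closest to the Escherichia coli sensor kinase rcsC (ATCC64974_110350) fell deepest, from 102 ± 10.5 to 14.5 ± 5.47 CPM (-2.81, SE 0.90, edgeR adjusted p = 0.0302). Also among the 4 was NIK1 (ATCC64974_63300), from 6.12 ± 0.378 to 2.09 ± 0.859 CPM. Another was pkp1, from 560 ± 20.8 to 165 ± 25.3 CPM, which is the mitochondrial kinase of pyruvate dehydrogenase and not such a sensor. Genes with the domain of response regulators, which take the phosphate from histidine kinases, had 0 of 13 higher and 3 lower. All 3 are themselves closest to histidine kinases: ATCC64974_110350 and 2 genes closest to NIK1, ATCC64974_63300 and ATCC64974_48950. ATCC64974_110350 and ATCC64974_63300 are counted in both families, so the 3 are not a separate result. Genes with a cyclic nucleotide binding domain had 1 of 4 higher. With 6 libraries, where 34.4% of all genes were higher and 34.9% lower, the counts were 14 higher and 11 lower of 39 phosphatases, 7 and 1 of 14 cyclins, 2 and 7 of 17 histidine kinases, 2 and 5 of 13 response regulators and 2 and 0 of 4 genes with the cyclic nucleotide domain.

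Kinase families outside PF00069 had 4 of 15 tested genes higher and 3 lower, and 6 and 5 with 6 libraries. rio1 (ATCC64974_58600), an atypical kinase of small ribosomal subunit maturation, stood at 1.38, 1.79 and 1.15 CPM in MA234.1 and at 35.1, 49.6 and 35.9 in ΔaslA (log2 change 4.79, SE 0.76, edgeR adjusted p = 0.00808), and at 36.0, 4.25 and 36.7 in ΔaslB. rio2 (ATCC64974_109460), of the same function, rose from 7.47 ± 2.07 to 55.4 ± 13.8 CPM (2.89, SE 0.56, edgeR adjusted p = 0.00813). abc1, of mitochondrial ubiquinone synthesis, rose from 35.7 ± 2.16 to 102 ± 29.9 CPM (1.51, SE 0.33, edgeR adjusted p = 0.00909).

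In ΔaslB against MA234.1, edgeR called 0 of 108 kinases and 0.0% of all 9568 genes with all 9 libraries; 26 kinases (24.1%) and 30.8% of all genes had an unadjusted p under 0.05. DESeq2 called 11 kinases (10.2%; 6 higher, 5 lower), against 18.9% of all genes (13.9% higher, 4.95% lower), among them cdk1, prp4, ksg1, STE11 and KIN28 higher and gsk3, SRPK ATCC64974_92530 and the MAP kinase ATCC64974_98230 lower. Without ΔaslB replicate 2, edgeR called 55 of 110 kinases (50%; 29 higher, 26 lower), against 52.8% of 9668 genes (26.5% higher, 26.3% lower); without replicate 3 it called 0 kinases and 24 genes (0.247%). With scaling to library totals alone it called 2 kinases, both higher, against 8.18% of all genes (7.98% higher). The libraries of ΔaslB did not overlap those of MA234.1 for 41 of 108 kinases (38.0%), against 36.8% of all genes.

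The difference between replicates was seen kinase by kinase. Over the 39 kinases called in ΔaslA, the share for which a ΔaslB library lay closer to MA234.1 than to ΔaslA on the log2 scale was 20.5% in replicate 1, 92.3% in replicate 2 and 7.69% in replicate 3. Each share describes 1 library, and the kinases in it are not replicates. Over the 4657 genes called in all, these shares were 18.8%, 90.7% and 6.68%. In 27 of the 39 kinases replicates 1 and 3 were closer to ΔaslA and replicate 2 to MA234.1. Replicate 2 lay closer to ΔaslA for gsk3, ksg1 and RAD53 ATCC64974_46630, together with replicates 1 and 3. MKK2 and Ank3 were closer to MA234.1 in all 3 replicates. Single ΔaslB libraries also stood beyond all the others. Replicate 1 was the highest for STE11 and dsk1, by 1.47 and 1.40 times the next library, and replicate 3 was the lowest for mpkC ATCC64974_46060, ran1 and nrc-2, by 1.63, 1.42 and 1.35 times.

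In ΔaslA against ΔaslB, the comparison that tests whether the deletions differ, edgeR called 0 of 108 kinases and 0.0% of all genes; 8 kinases (7.41%) and 17.3% of all genes had an unadjusted p under 0.05. DESeq2 called 4 kinases (3.70%), against 5.78% of all genes (0.47% higher, 5.31% lower): MKK2 higher in ΔaslA, and Ank3, Cdk8 and PHO85 ATCC64974_89380 lower. For MKK2 the edgeR log2 difference was 0.71 with an adjusted p of 0.150, and the DESeq2 adjusted p was 8.91e-05; over the alternatives it ran from 8.91e-05 to 0.487. Without ΔaslB replicate 2 MKK2 was the 1 kinase called of 110 (0.909%; log2 difference 0.76, SE 0.13, edgeR adjusted p = 0.0473), where 0.590% of all genes were, and this call was not made when the MA234.1 libraries were left out of that fit as well. Without replicate 3 edgeR called 8 of 112 kinases (7.14%; 1 higher, 7 lower in ΔaslA), against 13.2% of all genes (2.14% higher, 11% lower). In the authors' deposited table, 13 kinases (10.7%) have a q-value under 0.05 between MA234.1 and ΔaslB, against 27.7% of all genes, and 5 (4.13%) between the deletion strains, against 14.5%. The narrower call in the authors' deposited table marks 0 kinases in both, against 3.79% and 3.39% of all genes. In every ΔaslA library MKK2 lay above every ΔaslB library, at 249 CPM or more against 174 or less. Ank3 had the opposite order, at 10.7 CPM or less in ΔaslA against 15.5 or more in ΔaslB (log2 difference -1.45, edgeR adjusted p = 0.153; 0.00178 to 0.487 over the alternatives).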

How the data were processed

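The submitters' processing notes list HISAT2 2.2.1, Cuffdiff, Subread and featureCounts, with no roles; neither the strand mode nor the genome build is stated in what was used here. Raw read counts of 11187 genes, whole numbers with no scaling, were deposited by the authors for 9 libraries. In the authors' deposited table FPKM is 1 value a strain, its replicates already merged, and the log2 ratios of FPKM and the q-value compare strains in pairs. Protein families, SwissProt matches and contig positions come from that table. Value columns left unassigned numbered 0.

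Differential expression was computed from the counts with edgeR 4.0.16 (quasi-likelihood test) in R 4.3.3, with TMM scaling, the filter on low counts by group, 1 fit of all 9 libraries and strain as the only term; p-values were adjusted (Benjamini-Hochberg) over all 9568 genes tested, and calls have an adjusted p under 0.05. CPM is TMM-scaled, as mean ± SD. Each SE beside an edgeR log2 change is the absolute change divided by the square root of the test's F statistic. It restates the test and is no separate estimate of precision. Alternatives were DESeq2 1.42.0, limma-voom (limma 3.58.1), other scalings and filters, fewer libraries and the replicate number as a block; fits of 5 libraries were added after the data had been seen. Depth ran from 11321882 to 19110786 counts per library, and intervals and floors cover counting error only. The labels call the replicates biological but do not tie libraries to cultures.

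Members, role classes, families and tests were chosen with earlier results of these data known. The genes named are those with the 10 largest increases and the 10 largest decreases among called kinases without overlap and with at least 5 CPM in the higher strain, up to 3 called per class and family, core kinases whatever their values, the 5 highest by FPKM and those without counts. The other members of the MAP kinase cascades, the remaining genes of named types and sid2, HSL1, KCC1 and CAMKK1 were named after their values had been seen. Figures were drawn with matplotlib 3.10.9.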

Additional observations from a re-analysis of the deposited data

How the results depend on the processing

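In ΔaslA against MA234.1, 39 kinases and 4657 genes were called. The kinase count was 73 with only the 6 libraries compared and, with 5 of them, 66, 63 and 61 without MA234.1 replicate 1, 2 or 3 and 67, 85 and 71 without ΔaslA replicate 1, 2 or 3; with all strains and 1 library left out it was 18 to 61. Over all genes it was 3078 to 5900 with 1 library left out, and 7366 with 5 libraries, without ΔaslA replicate 2. Other scalings, filters, DESeq2 and limma-voom gave 37 to 48 kinases. With the replicate block it was 31 (13 higher, 18 lower) and 4186 genes, and 0 in the other comparisons. Over genes, deviations of libraries with the same number correlated between -0.058 and 0.038, and with different numbers between -0.044 and 0.065. No pairing by number was seen, and a batch shared by some libraries was not tested. In ΔaslB against MA234.1, 0 kinases became 11 with DESeq2, 2 with library totals alone, 55 without ΔaslB replicate 2 (53 when ΔaslA was left out too) and 0 to 55 over all libraries left out; 0 genes became 1807, 783, 5102 (5166) and 0 to 5102. In ΔaslA against ΔaslB, 0 kinases became 4 with DESeq2 and 0 to 8 with 1 library left out; 0 genes became 553 and 0 to 1282. ΔaslB replicate 2 lay closer to MA234.1 for 76.3% of called kinases with library totals alone and for 78.9% to 91.7% with a library left out, replicate 3 for 10.5% to 21.1% and replicate 1 for 14.8% to 26.9%. The causes were not tested. No named kinase reversed direction after being called. Depth limits the 13 untested kinases and those near 3 counts per library.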
